A study of Caenorhabditis elegans with 2 samples.

Results

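Methylation of histone tails is written by enzymes that mostly carry a SET domain, and proteins with chromodomains can read some of these marks. In the C. elegans germline, the MES-2/MES-3/MES-6 complex methylates H3K27, and MES-4 maintains H3K36 methylation. MET-2 and SET-25 place H3K9 methylation, and SET-2 places H3K4 methylation. The genes of 9 such factors were examined for peaks of CEC-7, a chromodomain protein that is the product of Y37D8A.11. They were mes-2, mes-3, mes-6, mes-4, met-1, set-2, met-2, set-25 and set-32, listed by name for their role in histone methylation, with earlier results of these data known, out of 19971 protein-coding genes of the 6 nuclear chromosomes. All 9 were found in the gene table, on 5 autosomes.

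The peaks came from chromatin immunoprecipitation and sequencing of whole hermaphrodites of the strain fem-2(b245), with the genotype fem-2(b245)III, labelled as young adults with a germline and kept at 20 degrees Celsius. The growth protocol instead describes gravid adults harvested from batch cultures, so the ages stated differ and each library pools many worms and all of their tissues. Of the 2 samples, 1 was precipitated for CEC-7 and the other was input DNA, taken without precipitation; both come from fem-2(b245) worms and both are labelled replicate 2. A peak list was analysed for the ChIP library and none for the input, and there was no worm without CEC-7 and no second ChIP library. No value below therefore has an error between replicates, and no p-value is given. The sequencing depth is unknown. The list held 2767 peaks with scores of 50.02 to 1951.83, the score being the peak caller's own value, used here only to rank peaks.

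A gene was counted as having a peak when a peak overlapped its body, or 500 bp on either side, by at least 1 bp. Peak positions below are those of the deposited list on build WS220. Genes were placed with RefSeq's table for WBcel235, whose positions are taken to differ by about 100 bp at most, so distances and edges carry that uncertainty. The gene table gave neither strand nor exons. Gene ends are therefore named by coordinate, lower or higher, and peaks are not assigned to exons, introns or UTRs.

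Of the 9 genes, 7 had a peak and 2 did not. With a peak were mes-2, mes-3, mes-4, met-1, set-2, met-2 and set-25, and without were mes-6 and set-32. Among the other protein-coding genes of the same 5 autosomes, 3489 of 17232 had one, a share of 20.2%. Since peak density differed between chromosomes, each gene was also set against its own chromosome. The shares were 37.1% for chromosome III, 29.5% for I, 21.3% for II, 16.1% for IV and 8.01% for V, and over the 9 genes they sum to 2.45 genes. A longer gene has more room for a peak, and the 9 genes were long, with a median of 5564 bp against 2006 bp over all protein-coding genes. Against genes of the same chromosome and the same length quartile, the shares sum to 3.11 genes. The 7 genes with a peak were all in the longest quartile of their chromosome, and the 2 without were not, so presence of a peak and gene length cannot be told apart within these 9 genes.

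Stricter and other rules gave similar counts. With no flank, 7 of the 9 genes overlapped a peak, against 17.4% of the other genes of the 5 autosomes. Of these 7, met-2 overlapped by only 58 bp and was lost when peaks were also moved by +100 bp. When a peak had to lie within 500 bp of either gene end, 6 of the 9 counted, all but mes-6, set-25 and set-32, against 17.6%. When only the higher-scoring 50% of peaks were kept, 6 of the 9 counted, all but mes-6, mes-4 and set-32, against 12.9%. The same-chromosome shares summed to 2.12, 2.14 and 1.65 genes in these settings. No sum matched for gene length was computed for them.

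**Figure D1:**
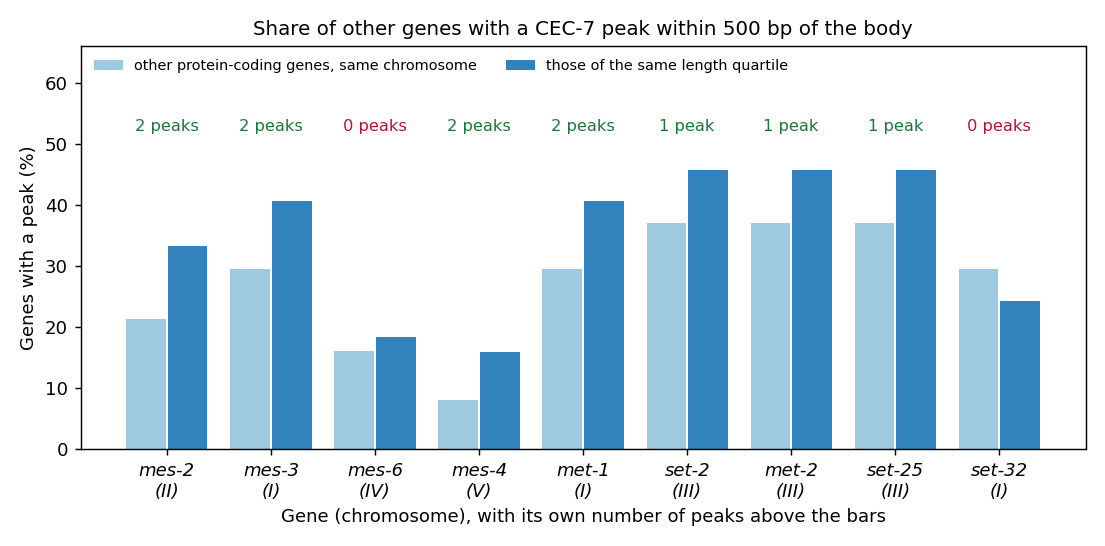
Share of other protein-coding genes with a CEC-7 peak within 500 bp of the gene body (y axis, percent), for each histone methylation gene (x axis, chromosome in brackets). Light bars are all other genes of that chromosome and dark bars those of the same length quartile; the number above each pair is the gene's own number of peaks. The shares run from 8.01% for the chromosome of mes-4 to 45.7% for long genes of chromosome III, and mes-6 and set-32 are the genes with 0 peaks.

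The 7 genes had 11 peaks between them, 0.398% of the list. Of these, for which no background was counted, 6 crossed a gene end, 4 lay wholly inside the body and 1 lay in the flank. Their scores ran from 82.57 to 935.15 with a median of 172.51, against a median of 126.99 over all 2767 peaks, and 3 of the 11 were above the 75th percentile of all scores. Their widths ran from 1301 to 8870 bp with a median of 2153 bp, against 1987 bp over all peaks. The peak in the flank was the second of met-1, 277 bp outside the gene. The first peak of met-1 overlapped its body by 442 bp, so met-1 counted without the flank. Of the genes without a peak, set-32 was the closer to the 500 bp limit, with its nearest peak 2873 bp away.

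**Figure D2:**
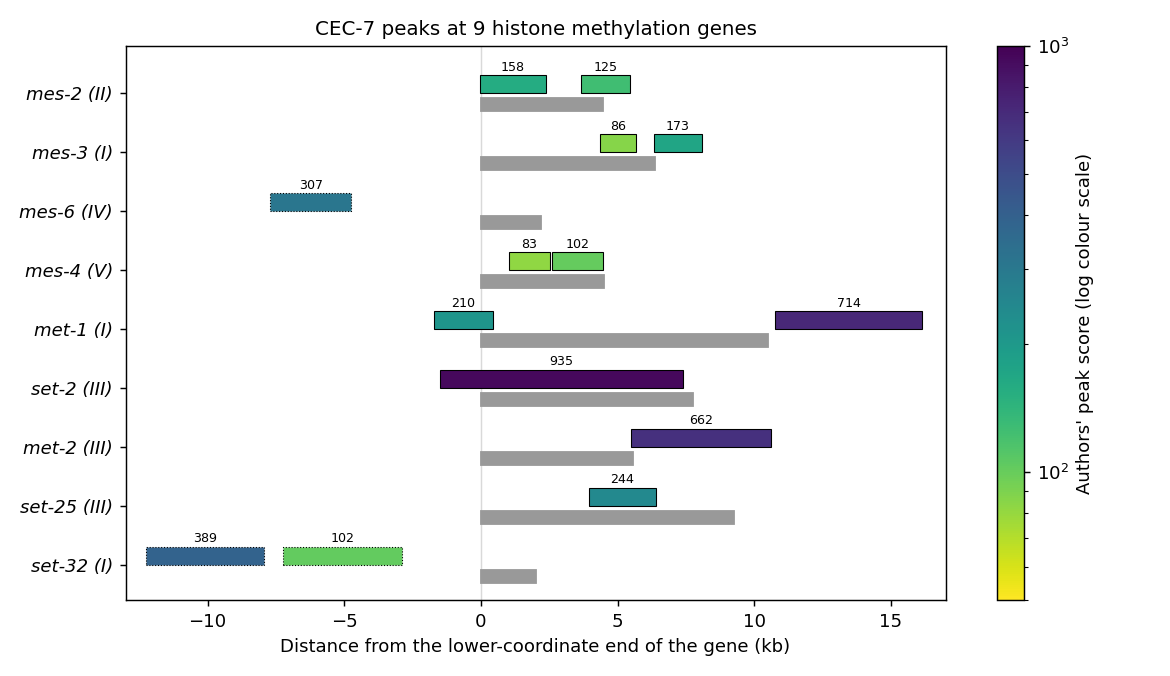
Peaks (coloured boxes, labelled with the authors' score and coloured by it on a log scale) above each gene body (grey bars), drawn to scale with distance from the gene's lower-coordinate end in kb on the x axis. Solid outlines mark the 11 counted peaks and dotted outlines the nearest peaks of mes-6 and set-32, which were not counted. The box over set-2 covers nearly the whole gene. Those at met-2 and at the higher end of mes-3 lie almost wholly outside the gene, and the one beyond the higher end of met-1 lies wholly outside.

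Of the 3 genes of the H3K27 complex, mes-2 and mes-3 had peaks and mes-6 had none. The gene mes-2 encodes the catalytic subunit, an E(z)-like SET domain protein, and lies on chromosome II with a length of 4482 bp. It had 2 peaks, 1271 bp apart. The peak at II 14383927 to 14386346 scored 158.02 and covered the lower 53.0% of the body, with 46 bp of it past the lower end. The peak at II 14387618 to 14389428 scored 124.78, crossed the higher end and ran 974 bp beyond it, over all of F26H11.8 and part of the kinetochore gene kbp-3. Together they covered 71.6% of the mes-2 body, more than in 90.3% of other genes of chromosome II, of which 21.3% had a peak. Both scores were near the middle of the list, at the 60.4th and the 49.2nd percentile.

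The gene mes-3, for a subunit of the same complex without a SET domain, is 6368 bp long on chromosome I and also had 2 peaks. The weaker, at I 5001195 to 5002495 with a score of 86.46, lay wholly inside the body, between 68.5 and 88.9% of the length from the lower end. The stronger, at I 5003155 to 5004933 with a score of 172.51, overlapped only 48 bp of mes-3 at its higher end, less than the uncertainty between builds. It covered all of dom-3, a gene named for its place downstream of mes-3, and 2.7% of its width lay in the mes-3 body. The gap between the peaks was 659 bp.

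The gene mes-6, for the ESC-like WD repeat subunit, is 2186 bp long on chromosome IV. Its nearest peak was IV 8503578 to 8506537 with a score of 307.24, which ended 4747 bp from the gene and lay inside tag-77. The next was IV 8496529 to 8498150, 13134 bp away, with a score of 51.34, close to the lowest of the list. The absence of a listed peak says only that none passed the caller's limit in this library.

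Both genes for H3K36 methyltransferases had peaks, in different places. The gene mes-4 encodes an NSD-like enzyme, and at 4496 bp it lies on V, the autosome with the smallest share of genes with a peak. Its first peak, V 13434078 to 13435576, scored 82.57, and its second, V 13435654 to 13437508, scored 102.03. They were 77 bp apart, both lay wholly inside the body and overlapped no other protein-coding gene. They covered 74.6% of the gene, from 22.9% of its length to 99.2%, more than in 97.6% of other genes of chromosome V. Of those other genes, 8.01% had a peak and 3.46% were covered over at least 50% of the body. The 2 scores were at the 29.2nd and the 40.8th percentile of the list, and at the 33.7th and the 49.8th among peaks of V. Thus mes-4 combined wide coverage with scores below the middle of the list, the higher of them near the middle for V.

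The gene met-1, for the SETD2-like H3K36 methyltransferase, was the longest of the 9 at 10503 bp and differed from mes-4 in both respects. Its body was covered over 4.21%, all at the lower end, by the peak at I 4252486 to 4254638 with a score of 209.72, which also touched cogc-5 and C43E11.12. The second peak, I 4264976 to 4270341, was 5366 bp wide and scored 714.04, at the 97.0th percentile. It began 277 bp past the higher end of met-1 and covered all of mus-81, C43E11.9 and cdc-6, the last a gene of replication licensing. It thus counted for met-1 through the flank, and without the flank the best score of met-1 was 209.72.

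The gene set-2, for the SET1-like H3K4 methyltransferase of the COMPASS complex, had the strongest and widest of the 11 peaks. This peak, III 4920948 to 4929817, was 8870 bp wide and scored 935.15, at the 99.0th percentile of the list. It covered 95.0% of the 7778 bp gene and ran 1479 bp past the lower end, over 61.3% of mmab-1. Of the other genes of chromosome III, 91.3% were covered less, and 37.1% had a peak.

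The 3 genes linked to H3K9 methylation differed from each other. The gene met-2, for the SETDB1-like enzyme of H3K9 mono- and dimethylation, had a peak at III 8380806 to 8385917, 5112 bp wide with a score of 662.44. Only 58 bp of it overlapped met-2, at the higher end, which is 1.04% of the gene and less than the uncertainty between builds. The remaining 5054 bp lay beyond met-2 and over 75.5% of the neighbouring gene R05D3.12. When all peaks were moved by +100 bp and the flank was left out, met-2 no longer overlapped a peak.

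The gene set-25, for the enzyme of H3K9 trimethylation, had 1 peak, III 13287765 to 13290224, with a score of 243.92 and a width of 2460 bp. It lay in the middle of the 9267 bp gene, between 42.5 and 69.1% of the length, and touched no other protein-coding gene. It was more than 500 bp from either end of set-25, so a count restricted to gene ends would not include it.

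The gene set-32, for a SET domain protein that acts in nuclear RNA interference, is 2032 bp long on chromosome I and had no peak. The nearest, I 9511996 to 9516371 with a score of 102.35, ended 2873 bp away and covered klp-16. The next, I 9506999 to 9511305, scored 388.55 and lay 7939 bp away over 90.3% of usp-48.

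The strength of the best peak was compared with other genes with a peak on the same chromosome. The median best score over the 7 genes was 243.92, against 176 over the 3489 other genes with a peak on the 5 autosomes. The best score is the highest among the peaks of a gene. Of the 7 genes, 4 had 2 peaks, while 23.6% of the other genes with a peak had 2 or more. These scores were not matched for gene length or number of peaks, and the effect of either was not tested. The 7 genes fell into a high and a middle range. The best score exceeded that of 95.2% of other genes with a peak on I for met-1. It exceeded 94.7% of those on III for set-2 and 87.9% of those on III for met-2. It exceeded 52.8% on III for set-25, 48.9% on I for mes-3, 43.0% on II for mes-2 and 38.8% on V for mes-4. The 3 mes genes with a peak thus lay below the median of their chromosomes, which was 177 on I, 197 on II and 127 on V. The best peaks of met-1, met-2 and mes-3 lay wholly or almost wholly outside the gene, and that of set-2 had 83.3% of its width inside it.

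**Figure D3:**
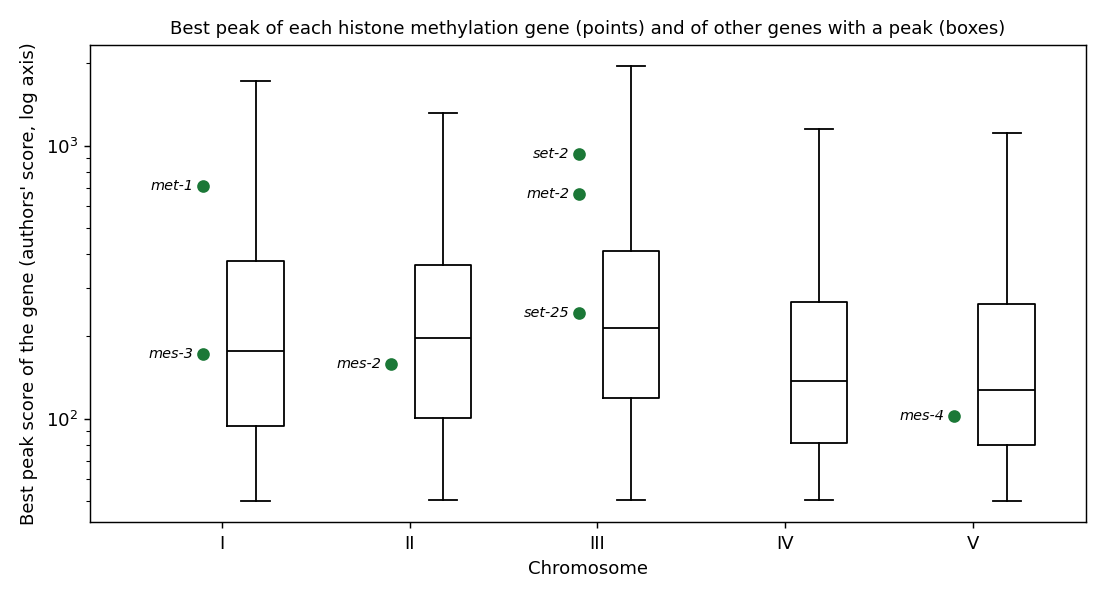
Best peak score of each histone methylation gene with a peak (points, left) and of other protein-coding genes with a peak on the same chromosome (boxes with quartiles and median, whiskers to the lowest and highest value), on a log axis. The points of met-1, set-2 and met-2 lie above the upper quartile of their chromosome, and those of mes-2, mes-3, mes-4 and set-25 lie within the box.

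Coverage of the body ordered the genes differently from score. It was 95.0% in set-2, 74.6% in mes-4, 71.6% in mes-2, 26.5% in set-25, 21.2% in mes-3, 4.21% in met-1, 1.04% in met-2 and 0% in mes-6 and set-32. The median was 21.2% and the mean 32.7%, against a mean of 10.8% over the other genes of the 5 autosomes, of which 82.6% had no base covered. The median over the 9 genes was 1.04% when only the higher-scoring 50% of peaks were kept. Of the 9 genes, only set-2 combined a score above the upper quartile of its chromosome with coverage of more than 50% of its body. Among other genes of chromosome III, 22.2% were covered over at least 50% of the body. The share of other genes meeting both conditions was not counted, so this combination is not set against a background.

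Some of the genes lay in stretches rich in peaks. Within 25 kb on either side of the gene midpoint there were 9 peaks at set-2, 8 at mes-2, 7 at met-1, 4 at met-2 and 3 at set-25. There were 2 each at mes-3, mes-4, mes-6 and set-32, and those at mes-3 and mes-4 were the gene's own peaks. These counts include the peaks of the gene itself. The median over other genes was 3 for chromosome III, 2 for I, 1 for II, 1 for IV and 0 for V. Fewer peaks were counted around 97.3% of other genes of II than around mes-2, around 97.2% of those of III than around set-2, and around 94.0% of those of I than around met-1. The genes without a peak, mes-6 and set-32, were not in empty stretches: 62.1% and 38.1% of the other genes of their chromosomes had fewer peaks around them. Of the 11 peaks, 6 also overlapped other protein-coding genes, 11 such genes in all. How many peaks of the whole list overlap more than 1 gene was not counted, so this number has no background. A peak shared with a neighbour cannot be assigned to the one or the other gene from this list.

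Other genes of histone methylation were examined as 4 lists, none of whose genes lay within 25 kb of the 9. Among genes for cofactors and readers of H3K9 and H3K36 methylation, 10 of 12 had a peak, where the shares of their chromosomes sum to 3.14. This list also holds several chromodomain genes. The highest score, 1726.36, was at lin-65, whose product is a cofactor of MET-2, in the peak I 1755277 to 1759963. Next were cec-6 with 253.17, and cec-7 and mrg-1 with 244.47. The last pair share a single peak, III 12874029 to 12877705, which covered 100% of cec-7, the gene of the precipitated protein, and 17.3% of mrg-1, the gene of a chromodomain protein that binds H3K36 methylation. The chromodomain genes cec-4 and cec-5 also share a peak, so the 10 genes with a peak do not stand for 10 separate peaks. The median best score of the list was 201.75.

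Among 31 other genes for SET domain proteins and DOT1, 11 had a peak and the shares sum to 5.58. Of these genes, 7 lie on X and none of the 7 had a peak, the nearest being 13625 to 3832093 bp away. The share of all X genes with a peak is not given here, so this absence cannot be read as a trait of these genes. The highest scores were 699.35 at set-21, 481.06 at set-5 and 461 at set-16, the gene of the MLL-type H3K4 methyltransferase, whose body was covered over 98.9%. Among 13 histone demethylase genes, 4 of them on X, 6 had a peak and the shares sum to 2.03, or 2.6 with length quartile. The KDM5-like rbr-2 had 714.15, the KDM2-like jhdm-1 had 426.48 and jmjd-1.2 had 125.43. Among 10 genes for partners of SET-2 and SET-16, 4 had a peak and the shares sum to 1.44. The scores were 266.34 at pis-1, 220.92 at ash-2, 94.88 at hcf-1 and 66.77 at wdr-5.1. Without the flank the count of this list was 3 (sum of shares 1.24), since the peak of wdr-5.1 lay 191 bp from the gene. The COMPASS genes cfp-1, dpy-30 and rbbp-5 were just outside the 500 bp limit, with the nearest peak 676, 720 and 779 bp away. A flank of 1000 bp, chosen after seeing the data, therefore had to raise this count, which was 7 against a sum of shares of 1.63. With that flank, the other SET and DOT1 genes had 12 (6.28), the cofactors and readers 10 (3.51) and the demethylases 6 (2.29). When the lower-scoring peaks were left out, the counts were 7 for the other SET and DOT1 genes (sum of shares 3.62), 2 for the demethylases (1.32), 2 for the partners of SET-2 and SET-16 (0.898) and 9 for the cofactors and readers (2.13). These lists were described by counts and not tested.

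**Figure D4:**
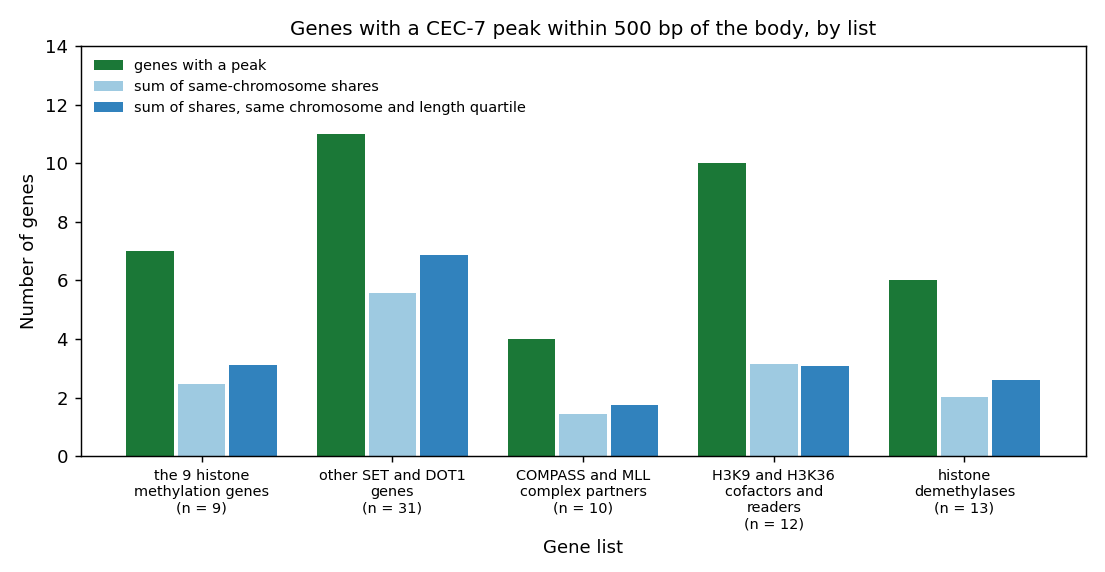
Number of genes with a CEC-7 peak (green) in the 9 histone methylation genes and in 4 lists of related genes, beside the sum of the shares of other genes of the same chromosome (light blue) and of the same chromosome and length quartile (dark blue). The counts of 7, 11, 4, 10 and 6 genes all lie above both sums.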

How the data were processed

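ChIP-seq peaks of CEC-7 were analysed for 1 library. Per the labels' protocols, frozen worms were ground, fixed with formaldehyde, sonicated and precipitated with a rabbit polyclonal antibody. Per the submitters' processing notes, BWA and ce10 were used. Per the file headers, peaks were called with MACS on WormBase WS220. The authors' deposited score per peak has no stated scale. No source used here gives the MACS version or settings, or says whether the input served as control or libraries were pooled. Depth is unknown.

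Genes came from RefSeq's table for WBcel235, for names, lengths and overlap with peaks (flank 500 bp, at least 1 bp). No WBcel235 coordinates are printed. The background is other protein-coding genes of the same chromosome, also by length quartile. Computations used Python 3.11.15, NumPy 2.4.6 and pandas 2.3.3, and the overlap code was tested on simulated data. Alternatives were flank, overlap, score limit, merging and peaks moved by 100 bp. Members and lists were chosen with earlier results of these data known. Named genes are the 9, neighbours under their peaks and the 3 highest-scoring of each list with ties; the COMPASS genes wdr-5.1, cfp-1, dpy-30 and rbbp-5, cec-4, cec-5 and the genes at uncounted peaks were named after their values were seen. The planned promoter and gene-start results were not run, since the table holds no strand.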

Additional observations from a re-analysis of the deposited data

How the results depend on the processing

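The count of 7 genes was 7 or 6 in all 10 alternatives run, and the sum of same-chromosome shares ran from 1.65 to 2.74. With the main rule, the sum was 2.45 by chromosome and 3.11 by chromosome and length quartile. With the higher-scoring 50% of peaks mes-4 was lost (6 genes, against a sum of 1.65). With peaks within 500 bp of a gene end, set-25 was lost, and with no flank and peaks moved by +100 bp, met-2 was lost. These 2 settings were chosen after seeing the data, as was the 1000 bp flank for the lists. The median best score was 209.72 without the flank, where met-1 loses its stronger peak, and 208.21 without set-2. Coverage was 32.7% as a mean and 1.04% as a median in the higher-scoring peaks. The median number of nearby peaks was 2 within 10 kb and 4 within 50 kb, against 0 and 2 for other genes. These numbers include the peaks of the gene itself, so they are not independent of the count of genes with a peak. In the higher-scoring peaks, the other SET and DOT1 genes had a count of 7, the COMPASS and MLL partners 2 and the demethylases 2 (sums of shares 3.62, 0.898 and 1.32). The COMPASS and MLL partners had 3 with no flank (1.24) and 7 with a flank of 1000 bp (1.63). With the 1000 bp flank, the other SET and DOT1 genes had 12 (6.28), the cofactors and readers 10 (3.51) and the demethylases 6 (2.29). No paired analysis was possible because there is 1 ChIP library, no values of the input library were analysed here, and no test was run. Gene-start windows and promoter composition were not run. Without depth or a replicate, genes without a listed peak cannot be called unbound.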
